A study of Mus musculus with 15 samples.

Results

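The genes described here are 39 genes of the mammalian cell cycle, measured by bulk RNA sequencing in 15 mouse brain libraries. They were chosen by name from textbook knowledge of the cell cycle and grouped by role. All 39 had an entry in the table, which lists 55416 entries with an Ensembl gene identifier, and 31 of them passed the filter for testing (at least 1 TPM in at least 3 of the 15 libraries). TPM is a transcript level corrected for gene length and scaled to the same total in every library.

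The libraries fell into 5 groups of 3. Every library came from brain of C57BL/6 mice, and the labels give every library, the untreated ones included, as a temporal lobe epilepsy (TLE) model induced with KA. CTRL_L was untreated, KA_L and KA_H were treated with KA, and APOE_L and APOE_H were treated with KA and APOE. The labels do not say what L and H stand for, what was done to APOE, the age of the mice or the time after treatment, and there was no untreated H group. The series title concerns lipid-loaded reactive astrocytes in epilepsy. Nothing in the labels ties each library to an animal of its own, so the p-values below measure the spread between these libraries, which may be technical.

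A cell enters the cycle when D-type cyclins with CDK4 or CDK6, and later cyclin E with CDK2, inactivate the retinoblastoma protein and free E2F factors, which switch on the genes for DNA synthesis. Cyclin A and cyclin B with CDK1 then carry the cell through G2 and mitosis, and CDK inhibitors such as p21 and p27 hold it back. In adult brain most neurons have left the cycle, while microglia and oligodendrocyte precursors can still divide, and microglia do so after injury.

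The content of the libraries bears on every value below. All 18 microglia marker genes stood at 1 TPM or more in all 15 libraries and summed to 20394 to 65861 TPM. Of 14 astrocyte markers 8 passed the filter and their sum was 113 to 423 TPM, with Slc1a3 at 33.5 to 157 TPM, whereas the defining gene Gfap was listed at 0 in 11 libraries and reached 3.53 TPM. None of 9 oligodendrocyte precursor markers passed the filter, and Pdgfra was listed at 0 in 11 libraries, although the list summed to 107 TPM in replicate 1 of KA_L, through Lhfpl3, and to 13.2 TPM in replicate 3 of APOE_H, through Cspg4. The neuroblast marker Dcx did not exceed 0.03 TPM, and 1 of 13 genes of that list passed. Apoe itself stood at 0 to 0.71 TPM in APOE_L and at 6.49 to 144 TPM in APOE_H, against 161 to 16636 TPM in the other 3 groups. TPM has the same total in every library, so the depth in reads is unknown, and genes listed at 0 may be undetected or not estimated. In bulk RNA a lower level from fewer cells of a type cannot be told apart from less RNA per cell.

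Cell cycle genes were mostly either near 0 or well above it within a group, and more of them were detected in the H libraries. At 1 TPM or more, 13, 10 and 13 of the 39 genes were detected in replicates 1, 2 and 3 of CTRL_L, 12, 14 and 9 in KA_L, and 11, 14 and 11 in APOE_L. KA_H libraries held 22, 25 and 24 of them, and APOE_H libraries 27, 18 and 32. Each of the 6 H libraries therefore held more of these genes than any of the 9 L libraries, 46.2% to 82.1% of the 39 against 23.1% to 35.9%. Over all Ensembl entries the H libraries also held more, 19.4% to 23.6% against 14.1% to 17.3%, so the share of cell cycle genes moved together with that of the whole table. At 5 TPM the mean number of members detected was 17.0 in KA_H and 23.3 in APOE_H, against 10.7 in CTRL_L, 8.33 in KA_L and 8 in APOE_L.

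**Figure D1:**
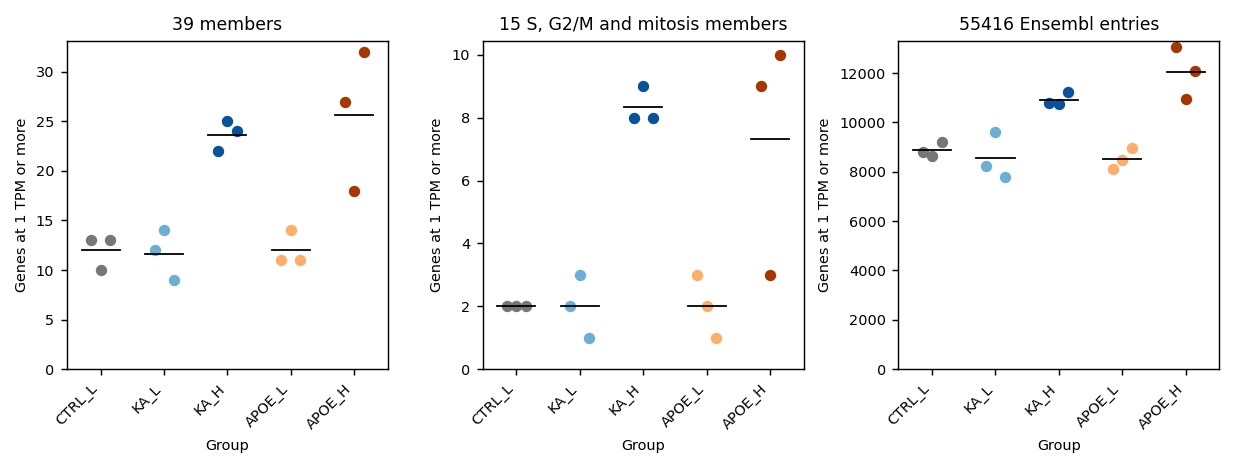
Number of genes at 1 TPM or more in each library (points, coloured by group) with the group mean (line), for the 39 cell cycle genes (left), the 15 genes of S phase, G2/M and mitosis among them (middle) and all 55416 Ensembl entries (right). The 6 H libraries hold 18 to 32 of the 39 genes and the 9 L libraries 9 to 14, and in the right panel the H libraries are again above all L libraries.

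Only 4 of the 39 genes, Ccnd3, Cdk6, Cdc45 and Pcna, were detected in all 15 libraries. Ccne1 (cyclin E1) and Plk1 (a mitotic kinase) were listed at 0 in every library. A further 12 genes were detected in H libraries alone, and these were E2f1, Cdc6, Rrm2, Ccna2, Ccnb2, Mki67, Birc5, Aurka, Aurkb, Bub1, Cdc20 and Ube2c. No gene was detected in L libraries alone. The 12 make up 32.4% of the 37 genes detected anywhere, and over all detected Ensembl entries 3321 of 19640, or 16.9%, were likewise detected in H libraries alone, with 2226 in L libraries alone. These shares are descriptions, and their difference was not tested.

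**Figure D2:**
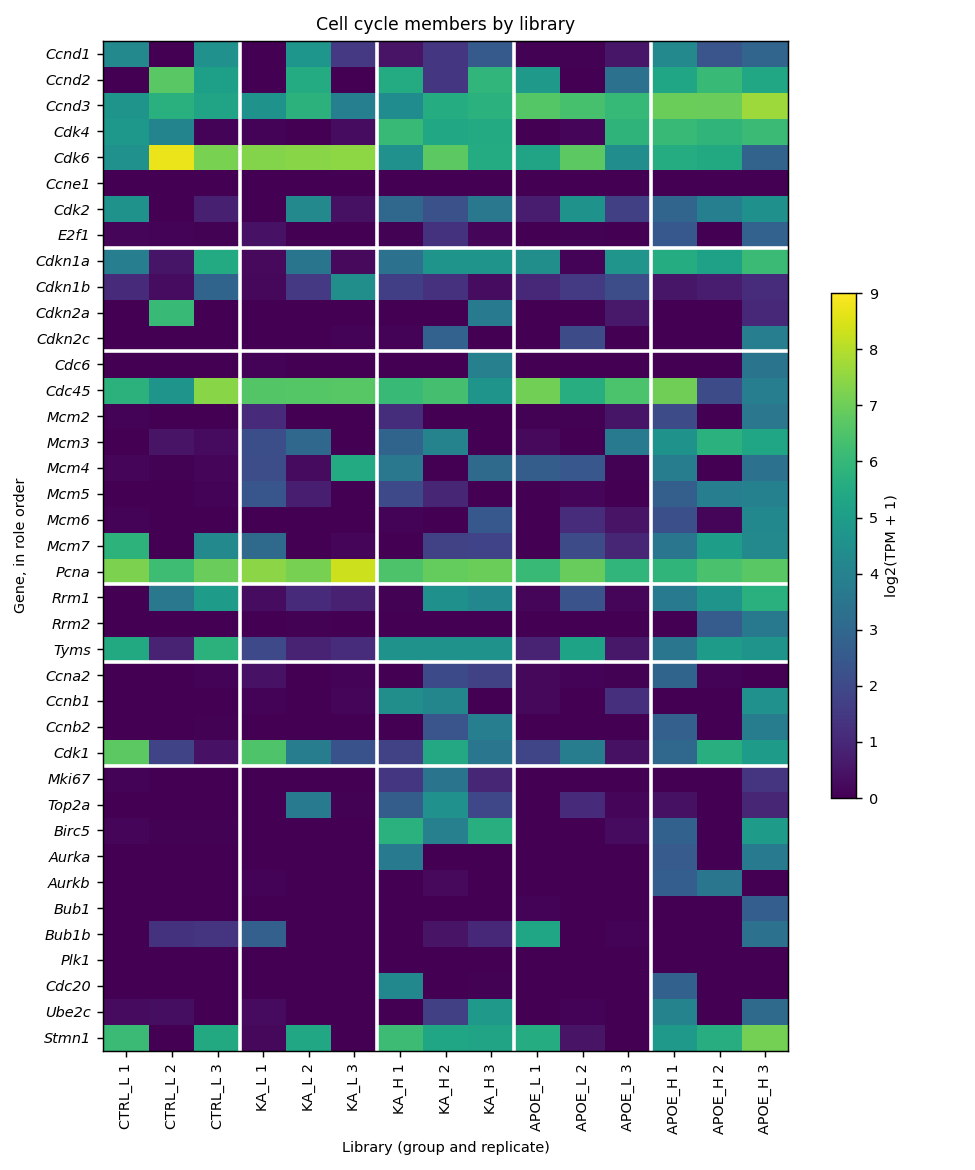
Level of each of the 39 genes (rows, by role) in each of the 15 libraries (columns, by group and replicate) as log2(TPM + 1), from dark (0) to yellow. Pcna, Cdc45, Ccnd3 and Cdk6 are bright in nearly all columns, while the mitosis genes at the bottom, other than Stmn1, Bub1b and Top2a (12.1 TPM in replicate 2 of KA_L), are dark in the L columns and bright in parts of the KA_H and APOE_H columns.

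Among the G1 genes, cyclin D3 and its partner kinase CDK6 were detected everywhere and cyclin D1 was uneven. Ccnd3, the gene of cyclin D3, stood at 24.1, 51.8 and 37.2 TPM in CTRL_L, 23.4, 54.1 and 13.9 in KA_L, 19.7, 47.1 and 53.1 in KA_H, 97.1, 81.5 and 64.2 in APOE_L, and 126, 123 and 205 in APOE_H. All 6 APOE libraries lay above all 9 others for this gene. Cdk6, which encodes a cyclin D-dependent kinase, stood at 22.4, 422 and 146 TPM in CTRL_L, 161, 170 and 177 in KA_L, 22.7, 106 and 45.9 in KA_H, 37.3, 105 and 20.3 in APOE_L, and 47.1, 43.3 and 6.36 in APOE_H. The 3 KA_L libraries were close together and above every library of KA_H, APOE_L and APOE_H, and the CTRL_L libraries overlapped with every other group. Ccnd1, the gene of cyclin D1, ranged from 0 to 25.4 TPM, and Cdk2, the partner of cyclins E and A, from 0 to 23.7 TPM.

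Cdk4, the other cyclin D-dependent kinase, was present in all H libraries and patchy in the L libraries. It stood at 27.2, 15.8 and 0.06 TPM in CTRL_L, 0.05, 0 and 0.23 in KA_L, 67.5, 41.5 and 43.8 in KA_H, 0, 0.09 and 56.5 in APOE_L, and 67.5, 58.4 and 69.9 in APOE_H. Replicate 3 of APOE_L lay among the H libraries, and the other 5 treated L libraries were at 0.23 TPM or less. Ccnd2 (cyclin D2) was on or off within each L group: 0, 104 and 32.6 TPM in CTRL_L, 0.02, 45.1 and 0 in KA_L, and 27.96, 0 and 9.17 in APOE_L. It stood at 45.4, 1.67 and 59.1 TPM in KA_H and at 38.7, 66.0 and 41.5 in APOE_H. E2f1, an activating E2F factor, did not exceed 0.35 TPM in any L library and reached 1.47 TPM in KA_H and 6.04 TPM in APOE_H. Cdk4 shares 641 exon bases with the neighbouring gene Tspan31 in the GENCODE annotation. For Tspan31 the KA_L libraries held 0.64, 65.6 and 79.2 TPM and the KA_H libraries 98.8, 69.1 and 147 TPM, which overlap. The APOE_L libraries held 46.05, 55.2 and 59.6 TPM of Tspan31 and the APOE_H libraries 262, 200 and 188 TPM, which do not overlap. Whether reads were counted by strand is not given in the sources used here, and the part of the overlap in the Cdk4 values was not tested.

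The promoter of Cdk4 is printed because this gene is called in the comparison of H with L below. The 250 bases before the RefSeq start (GRCm38.p6, chr10:127063285-127063534, plus strand, 5′ to 3′) were searched on both strands for 3 motifs known from cell cycle promoters, the CHR element TTTGAA, the CCAAT box CCAAT and an E2F site written TTTNNCGC, and matches, reverse complements included, are set in capitals here and below.
Cdk4: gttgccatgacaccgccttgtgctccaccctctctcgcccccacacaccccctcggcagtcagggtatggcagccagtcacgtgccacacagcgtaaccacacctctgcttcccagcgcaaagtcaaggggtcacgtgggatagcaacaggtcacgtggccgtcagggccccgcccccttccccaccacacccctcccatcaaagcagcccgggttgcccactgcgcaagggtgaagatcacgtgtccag
None of the 3 letter patterns occurs in this window, which says nothing about binding of a factor. Of 27025 mouse genes with a window of the same length, 18.3% hold TTTGAA, 37.5% CCAAT and 4.94% TTTNNCGC. Of the 33 cell cycle genes with a window, 8 (24.2%), 23 (69.7%) and 8 (24.2%) hold them.

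Among the CDK inhibitors, Cdkn1a was detected in all H libraries and in 5 of the L libraries. It encodes p21, which p53 induces, and stood at 13.4, 0.44 and 44.5 TPM in CTRL_L, 0.16, 10.3 and 0.16 in KA_L, 9.54, 24.2 and 24.2 in KA_H, 21.0, 0.05 and 24.9 in APOE_L, and 46.2, 34.2 and 68.8 in APOE_H. All H libraries were at 9.54 TPM or more, and each L group held at least 1 library under 0.5 TPM. Cdkn1b, the gene of p27, which marks resting cells, stood at 1.12, 0.22 and 6.5 TPM in CTRL_L, 0.13, 1.84 and 20.8 in KA_L, 2.16, 1.46 and 0.24 in KA_H, 1.07, 1.89 and 3.42 in APOE_L, and 0.47, 0.62 and 1.21 in APOE_H. Its highest value lay in KA_L, and the groups overlapped. Cdkn2a, the gene of p16 and p19Arf, did not pass the filter: it was listed at 67.3 TPM in replicate 2 of CTRL_L, 11.6 in replicate 3 of KA_H, and under 1 TPM in the other 13 libraries. Cdkn2c (p18) reached 13.4 TPM in replicate 3 of APOE_H and was at 1 TPM or more in 2 other libraries.

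The replication genes held Pcna and Cdc45, detected in every library, and the MCM helicase genes, which differed from library to library. Pcna, the sliding clamp of DNA polymerases, stood at 150, 73.0 and 123 TPM in CTRL_L, 170, 143 and 315 in KA_L, 88.3, 116 and 124 in KA_H, 67.8, 118 and 60.3 in APOE_L, and 58.5, 84.7 and 104 in APOE_H. KA_L held the highest value of this gene and did not overlap with KA_H or APOE_L. Cdc45, which joins MCM2 to MCM7 in the active helicase, stood at 53.8, 24.5 and 168 TPM in CTRL_L, 94.5, 97.9 and 100.5 in KA_L, 67.7, 80.2 and 24.2 in KA_H, 134, 47.9 and 86.1 in APOE_L, and 131, 3.21 and 13.5 in APOE_H. It stood at 24.5 TPM or more in the L libraries, where most mitosis genes were near 0. Cdc45 shares 209 exon bases with Ufd1 in the annotation.

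Mcm5, a subunit of the helicase, was near 0 in CTRL_L (0, 0.02 and 0.06 TPM) and APOE_L (0.01, 0.11 and 0), and stood at 4.26, 0.67 and 0 TPM under KA_L and 2.92, 0.96 and 0 under KA_H. In APOE_H it stood at 5.60, 13.5 and 14.5 TPM, above all 12 other libraries. Mcm3 stood at 0, 0.40 and 0.20 TPM in CTRL_L, 3.47, 7.25 and 0.02 in KA_L, 6.43, 15.4 and 0 in KA_H, 0.18, 0 and 11.9 in APOE_L, and 23.4, 53.1 and 38.4 in APOE_H. The APOE_H libraries were again above all others. The remaining helicase genes were uneven: Mcm2 reached 10.9 TPM and Mcm6 17.2 TPM in replicate 3 of APOE_H, Mcm4 was highest in replicate 3 of KA_L at 44.8 TPM, and Mcm7 was highest in replicate 1 of CTRL_L at 55.0 TPM. Cdc6, which loads the helicase at origins, was at 14.1 TPM in replicate 3 of KA_H and 10.03 TPM in replicate 3 of APOE_H and under 1 TPM in the other 13 libraries.

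The Mcm5 promoter window (GRCm38.p6, chr8:75109259-75109508, plus strand) is shown because this gene is called between APOE_H and APOE_L.
Mcm5: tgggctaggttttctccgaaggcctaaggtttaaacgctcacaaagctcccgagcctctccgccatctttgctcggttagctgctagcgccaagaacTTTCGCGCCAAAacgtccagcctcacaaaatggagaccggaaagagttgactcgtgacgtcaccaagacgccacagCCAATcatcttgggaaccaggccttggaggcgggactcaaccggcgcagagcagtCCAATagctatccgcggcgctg
It holds 2 CCAAT boxes, at 77 and 22 bases before the start, and 2 overlapping E2F patterns, at 153 and 149 bases before the start. The overlapping pair lies on opposite strands.

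Of the genes that supply deoxynucleotides, Tyms, the thymidylate synthase, stood at 43.3, 0.86 and 53.8 TPM in CTRL_L, 2.97, 0.80 and 1.20 in KA_L, 23.6, 23.8 and 22.8 in KA_H, 0.80, 36.4 and 0.49 in APOE_L, and 10.5, 29.6 and 24.5 in APOE_H. The KA_H libraries lay within about 1 TPM of each other and above all KA_L libraries, while CTRL_L spanned both. Rrm1, the large subunit of ribonucleotide reductase, stood at 0.02, 11.1 and 29.4 TPM in CTRL_L, 0.23, 1.10 and 0.76 in KA_L, 0.03, 22.2 and 17.2 in KA_H, 0.12, 3.96 and 0.12 in APOE_L, and 11.8, 24.2 and 51.8 in APOE_H. Rrm2, the small subunit, whose level limits the enzyme to S phase, was detected only in replicates 2 and 3 of APOE_H, at 5.08 and 11.3 TPM.

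The 15 genes of S phase, G2/M and mitosis (4 cyclin and kinase genes and 11 mitosis genes) were mostly near 0 in the L libraries. Of these 15, each L library held 1 to 3 at 1 TPM or more, the KA_H libraries 8, 9 and 8, and the APOE_H libraries 9, 3 and 10. Birc5, the gene of survivin, a subunit of the chromosomal passenger complex, stood at 0.08, 0.03 and 0.03 TPM in CTRL_L, 0.02 in each KA_L library, 53.3, 14.2 and 48.4 in KA_H, 0.01, 0 and 0.19 in APOE_L, and 5.89, 0 and 30.5 in APOE_H. All 9 L libraries were below 0.2 TPM, and replicate 2 of APOE_H was listed at 0 beside them. Mki67, the gene of the Ki-67 antigen of cycling cells, stood at 1.66, 9.97 and 0.94 TPM in KA_H and 0, 0 and 1.62 in APOE_H, and did not exceed 0.05 TPM in the L libraries. Top2a, a topoisomerase needed to separate chromosomes, stood at 5.23, 22.5 and 2.77 TPM in KA_H and at 0.33, 0 and 0.95 in APOE_H, with 12.1 TPM in replicate 2 of KA_L.

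**Figure D3:**
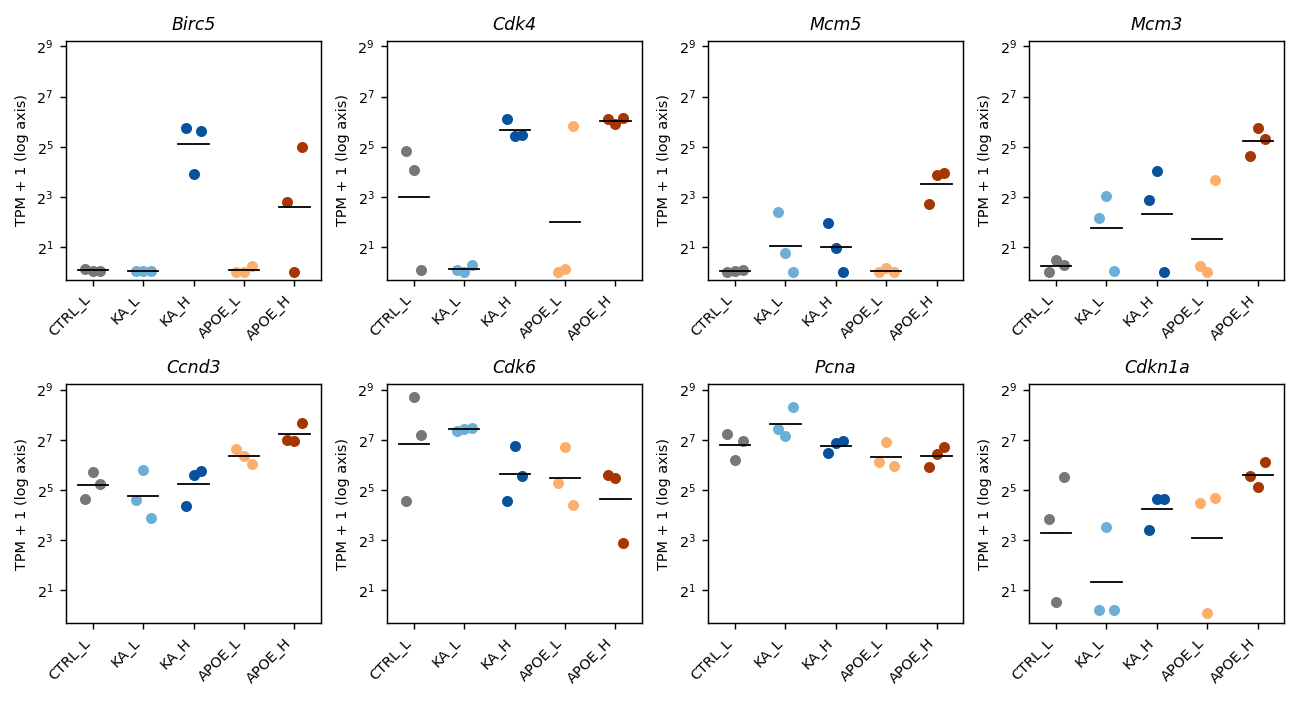
TPM + 1 on a log axis in each library (points) with the mean of the log values (line) for 8 of the genes, by group. Birc5 and Cdk4 are high in the KA_H libraries and near the floor in KA_L, Mcm5 and Mcm3 are highest in the 3 APOE_H libraries, and Ccnd3, Cdk6 and Pcna are well above the floor in all 15 libraries.

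The cyclins of the later phases were each detected in some H libraries and not in others. Ccnb1 (cyclin B1) stood at 20.6, 16.4 and 0 TPM in KA_H and at 0, 0 and 22.6 in APOE_H, and in the L libraries only replicate 3 of APOE_L passed 1 TPM, at 1.37. Ccnb2 (cyclin B2) stood at 0, 4.24 and 13.4 TPM in KA_H and 5.83, 0 and 13.2 in APOE_H, and did not exceed 0.04 TPM in the L libraries. Ccna2 (cyclin A2) reached 3.10 TPM in KA_H and 6.42 TPM in APOE_H. Cdk1, the kinase these cyclins activate, did not follow them: it stood at 104, 2.62 and 0.36 TPM in CTRL_L, 90.6, 13.2 and 3.82 in KA_L, 2.34, 42.7 and 10.5 in KA_H, 2.72, 13.1 and 0.32 in APOE_L, and 7.31, 50.8 and 30.6 in APOE_H. Its 2 highest values were in L libraries in which Mki67 and Top2a were at or below 0.05 TPM.

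The spindle genes were also on in some H libraries and off in others of the same group. Aurka, a spindle pole kinase, was listed at 0 in all 9 L libraries and at 11.8, 0 and 0 TPM in KA_H and 5.02, 0 and 12.4 in APOE_H. Ube2c, a ubiquitin-conjugating enzyme of mitotic exit, stood at 0, 2.26 and 27.98 TPM in KA_H and 15.3, 0 and 7.66 in APOE_H, with at most 0.25 TPM in the L libraries. Cdc20, an activator of the same ubiquitin ligase, was detected in replicate 1 of KA_H at 17.6 TPM and replicate 1 of APOE_H at 5.98 TPM. Aurkb, the kinase that works with survivin, was at 5.46, 10.5 and 0 TPM in APOE_H and under 1 TPM elsewhere, and the checkpoint kinase Bub1 passed 1 TPM only in replicate 3 of APOE_H, at 5.4. Replicate 2 of APOE_H, which held 3 of the 15 genes, thus had Aurkb but listed Birc5, Aurka, Ccnb1, Ccnb2, Mki67, Top2a and Ube2c at 0.

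The remaining pair of mitosis genes did not separate H from L in this way. Bub1b, a spindle checkpoint gene, stood at 0, 1.5 and 1.62 TPM in CTRL_L, 5.7, 0 and 0 in KA_L, 0, 0.38 and 1.05 in KA_H, 38.4, 0 and 0.06 in APOE_L, and 0, 0 and 9.15 in APOE_H. It passed 1 TPM in 6 libraries, with at least 1 in each group. Stmn1, which encodes a microtubule-destabilising protein also made by neurons and their precursors, stood at 69.3, 0 and 43.0 TPM in CTRL_L, 0.13, 40.2 and 0 in KA_L, 70.7, 37.8 and 37.2 in KA_H, 46.4, 0.38 and 0 in APOE_L, and 28.1, 48.0 and 138 in APOE_H. It was at 28.1 TPM or more in all H libraries and on or off in the L libraries.

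Promoter windows of 4 genes of G2/M and mitosis are shown as examples: Birc5, which is called below, the cycling-cell markers Mki67 and Top2a, and Cdk1, detected in L and H libraries. The whole window is printed for Birc5 (GRCm38.p6, chr11:117848987-117849236, plus strand) and the 120 bases next to the start for Cdk1 (chr10:69352913-69353032, minus strand), Mki67 (chr7:135716380-135716499, minus strand) and Top2a (chr11:99024190-99024309, minus strand).
Birc5: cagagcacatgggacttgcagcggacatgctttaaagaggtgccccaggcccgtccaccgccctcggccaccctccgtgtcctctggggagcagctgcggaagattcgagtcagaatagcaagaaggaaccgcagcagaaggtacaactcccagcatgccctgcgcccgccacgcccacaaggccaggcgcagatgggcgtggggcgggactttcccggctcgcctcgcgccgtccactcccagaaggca
Cdk1: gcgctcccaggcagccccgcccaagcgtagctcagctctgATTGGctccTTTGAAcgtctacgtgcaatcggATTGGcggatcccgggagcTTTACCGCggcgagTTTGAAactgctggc
Mki67: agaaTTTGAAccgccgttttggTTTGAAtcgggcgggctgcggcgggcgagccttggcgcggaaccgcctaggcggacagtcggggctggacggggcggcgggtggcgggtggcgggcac
Top2a: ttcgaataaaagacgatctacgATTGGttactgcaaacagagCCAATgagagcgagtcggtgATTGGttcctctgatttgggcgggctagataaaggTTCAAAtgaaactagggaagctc
The windows of Cdk1, Mki67 and Top2a each hold 2 TTTGAA matches within their 250 bases, and the Birc5 window holds none of the 3 patterns. Of the 12 genes of S phase, G2/M and mitosis with a window, 6 (50%) hold TTTGAA, 11 (91.7%) CCAAT and 1 (8.33%) TTTNNCGC. Cdk1, whose window holds all 3 patterns, passed 1 TPM in L and H libraries alike.

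Differences between groups were tested with limma on log2(TPM + 1) over 17505 entries, and a gene is called at a Benjamini-Hochberg adjusted p under 0.05 over all of them. Fold changes are on this log2 scale, which understates changes of genes near 0. The tested 31 do not stand for all 39. Of them 7 (Aurka, Birc5, Ccna2, Ccnb2, E2f1, Mki67 and Ube2c), 22.6%, reached 1 TPM in H libraries alone and so passed the filter only through the libraries in which they were high, beside 4.15% of all entries tested. Ccnb1, Cdkn2c, Mcm2, Mcm5, Mcm6 and Top2a reached 1 TPM in 1 or 2 L libraries, so they too passed only with H libraries. Mcm5 passed only with its APOE_H values. Counts and medians over the 31 in comparisons that hold H libraries are therefore descriptions and support nothing about the 39. Several comparisons below share a group of libraries, so their values are not independent of each other.

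KA_L against CTRL_L asks what KA treatment went with among L libraries. No cell cycle gene was called: 0 of 31 by limma, with 0 at an unadjusted p under 0.05 and 0 under each of the other settings tried, beside 0.571% of all entries called (30 higher, 0.171%, and 70 lower, 0.4%, or 26 and 36 with upper-quartile scaling). The median log2 difference was 0 for the 31 genes and 0 for all entries. The 3 KA_L libraries did not overlap with CTRL_L for 2 genes on the higher side, Ccnb1 and Mcm4, and 1 on the lower side, Birc5, where 6.27% and 4.54% of all entries did so. Ccnb1 and Birc5 were below 0.1 TPM in all 6 libraries.

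KA_H against KA_L compares H with L under KA. Birc5 rose, from 0.02 TPM in each KA_L library to 38.6 ± 21.3 TPM (SD, n = 3), by 5.07 on the log2(TPM + 1) scale (SE 1.11, limma adjusted p = 0.0332). It was the only 1 of 31 genes called, 3.23%, beside 1.49% of all entries in either direction and 1.23% on the higher side. Cdk4 (5.54, limma adjusted p = 0.0745), Mki67 (1.94, 0.161), Tyms (3.28, 0.284), Ccnb1 (2.78, 0.294) and Ccnb2 (2.08, 0.334) had log2 differences above 0 with an unadjusted p under 0.05 and did not pass. With Birc5 these are 6 of 31 genes, 19.4%, at that unadjusted level, beside 14.8% of all entries. The groups did not overlap for 4 genes with KA_H higher (Birc5, Cdk4, Mki67 and Tyms) and 3 with KA_H lower (Cdc45, Cdk6 and Pcna), where 10.5% and 9.12% of all entries did so. The median difference was 0.94 over the 31 genes and 0.11 over all entries. The Birc5 call did not hold with any 1 of the KA_L libraries left out (adjusted p 0.0582 to 0.0987), without replicate 1 or 3 of KA_H (0.0901 and 0.115), or in a fit of these 6 libraries alone (0.137). Without replicate 3 of APOE_L or replicate 3 of CTRL_L, which bear on the pooled spread, Cdk4 was called as well, so the count was 2.

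APOE_H against APOE_L makes the same comparison under KA and APOE. Mcm5 rose from 0.01, 0.11 and 0 TPM to 11.2 ± 4.88 TPM (SD, n = 3), by 3.46 on the log2 scale (SE 0.83, limma adjusted p = 0.0218). It was the single call among the 31 genes, 3.23%, beside 6.15% of all entries, 4.7% on the higher side and 1.45% on the lower. With 1 call these shares are descriptions. Mcm3 (3.91, limma adjusted p = 0.0891), Cdk4 (4.06, 0.115), Rrm1 (3.81, 0.130), Mcm7 (3.27, 0.186) and Birc5 (2.5, 0.198) did not pass. At an unadjusted p under 0.05 there were 13 of 31 genes, 41.9%, beside 21.9% of all entries. The groups did not overlap for 9 genes, all with APOE_H higher: Ccnd1, Ccnd2, Ccnd3, Cdk4, Cdkn1a, Mcm3, Mcm5, Mcm7 and Rrm1. Of all entries 20.1% did so on that side and 9.65% on the other, where there was no cell cycle gene. The median difference was 1.74 over the 31 genes, which the filter admitted partly through these H libraries, and 0.54 over all entries. Without any 1 of the APOE_L libraries (adjusted p 0.0602 to 0.0677) or without replicate 2 or 3 of APOE_H (0.0510 and 0.0727) Mcm5 was not called. Without replicate 2 of APOE_H, E2f1 and Mcm2 were called instead, and without replicate 3 of APOE_L, Cdk4 and Mcm3.

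**Figure D4:**
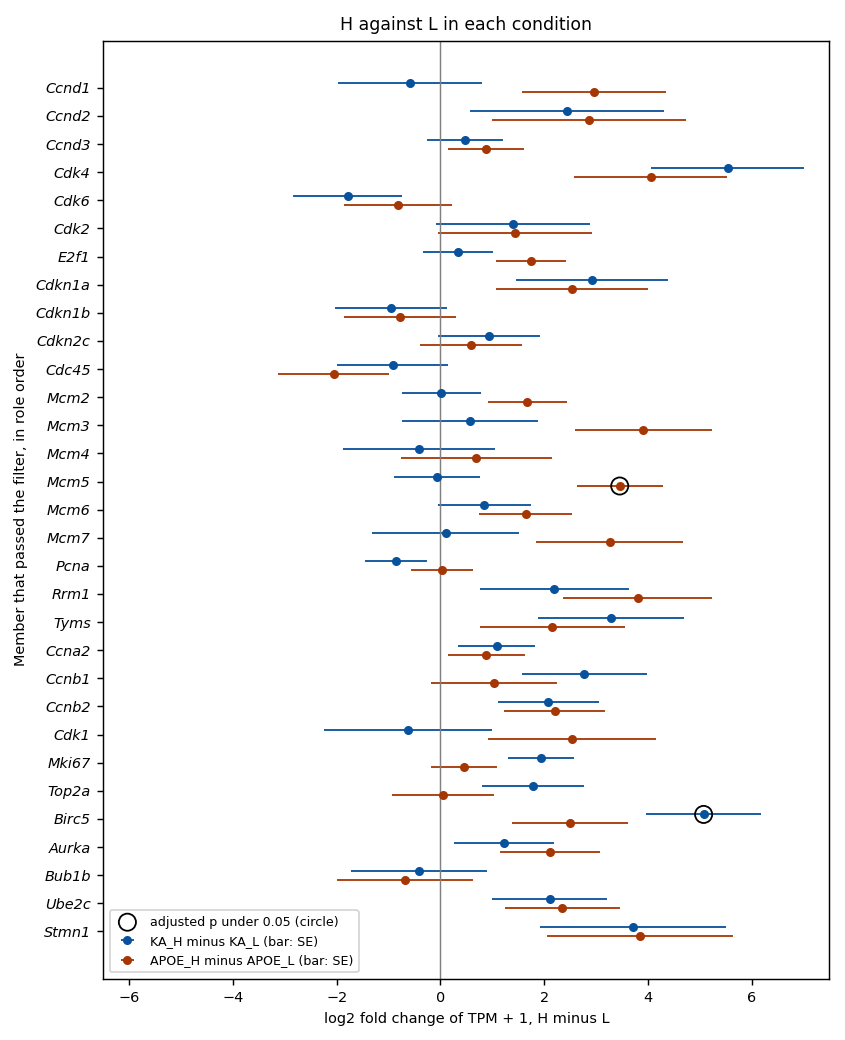
Log2 fold change of TPM + 1, H minus L, with its SE for the 31 tested genes in role order, for KA (blue) and KA with APOE (orange), with a circle around the calls. Birc5 under KA and Mcm5 under KA with APOE carry the 2 circles. Some of the 31 genes passed the filter only with H libraries, so the side of 0 on which the points lie is a description.

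Averaged over both conditions, Cdk4 and Birc5 rose in H, where Birc5 had entered the test only through H libraries. Cdk4 stood at 41.5 to 69.9 TPM in the 6 H libraries and at 0 to 56.5 TPM in the 6 treated L libraries, a log2 difference of 4.80 (SE 1.04, limma adjusted p = 0.00839). Birc5 stood at 0 to 53.3 TPM against 0 to 0.19 TPM, a difference of 3.79 (SE 0.78, limma adjusted p = 0.00645). These 2 of 31 genes, 6.45%, stand beside 10.2% of all entries called, 7.72% higher and 2.46% lower. Ccnb2 (2.14, limma adjusted p = 0.0594), Stmn1 (3.79, 0.0683), Rrm1 (3.00, 0.0714), Mcm5 (1.70, 0.0768), Ube2c (2.23, 0.0828) and Tyms (2.72, 0.0932) came next and did not pass. At an unadjusted p under 0.05 there were 14 of 31 genes, 45.2%, beside 26.3% of all entries, and the median difference was 1.25 beside 0.32. The 31 include the 7 genes that reached 1 TPM in H libraries alone and others that passed only with H libraries. No cell cycle gene had all 6 H libraries on one side of all 6 treated L libraries, which 3.42% (higher) and 2.18% (lower) of all entries had. Both calls held under every one of the 21 other settings tried. Leaving out replicate 2 of APOE_H raised the count to 6, adding Aurka, Ccnb2, E2f1 and Ube2c, and leaving out replicate 1 of KA_H raised it to 5, adding Ccnb2, Rrm1 and Ube2c. It was 4 without replicate 2 of CTRL_L, adding Stmn1 and Tyms.

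APOE_L against KA_L and APOE_H against KA_H compare KA with APOE to KA alone. Neither gave a call among the 31 genes. In the L comparison 2 genes had an unadjusted p under 0.05, Ccnd3 with a log2 difference of 1.57 (limma adjusted p = 0.629) and Pcna with -1.32 (0.611). These are 6.45% of the 31, beside 7.84% of all entries at that level, and 0.0457% of all entries were called (0.0343% higher and 0.0114% lower). In the H comparison 7 genes, 22.6%, had an unadjusted p under 0.05, beside 8.63% of all entries at that level, and 0.531% of all entries were called (63 higher, 0.36%, and 30 lower, 0.171%, or 54 and 47 with upper-quartile scaling). Those with higher values in APOE_H were Mcm5 (2.53, limma adjusted p = 0.328), Ccnd3 (1.98, 0.425), Mcm3 (2.91, 0.550) and Mcm7 (3.08, 0.560). Those with lower values were Top2a (-2.58, limma adjusted p = 0.448), Mki67 (-1.48, 0.534) and Birc5 (-2.52, 0.542). Of these 7, Mcm5 passed the filter only with its APOE_H values, and Top2a, Mki67 and Birc5 only with their KA_H values. The share of 22.6% is therefore a description. Groups did not overlap for Ccnd3, Cdkn1a, Mcm3, Mcm5 and Mcm7 on the higher side and Top2a on the lower side, where 14.6% and 6.51% of all entries did so. In the L comparison Ccnd3 lay wholly higher and Cdk6 and Pcna wholly lower, beside 3.57% and 5.52% of all entries.

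The difference between the 2 H against L contrasts was tested as an interaction. None of the 31 genes was called by limma, beside 0.0457% of all entries, and Mcm5 was the only gene with an unadjusted p under 0.05 (3.52, SE 1.17, adjusted p = 0.451). The calls of Birc5 under KA alone and of Mcm5 under KA with APOE alone are therefore not shown to differ between the conditions. The median interaction over the 31 genes was 0.24, beside 0.38 over all entries, and with upper-quartile scaling it was -0.08 beside 0.05.

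Wider lists of cell cycle genes outside the 39 were measured in the same way, and 99 of them were tested. At 1 TPM or more, 9 to 15 of 43 other mitosis genes were detected in the L libraries and 19 to 26 in the H libraries, with no overlap. All Ensembl entries did not overlap either, with 14.1% to 17.3% detected in the L libraries and 19.4% to 23.6% in the H libraries. For the other 4 lists the ranges met or overlapped. Of 30 other replication genes 8 to 15 (L) and 13 to 25 (H) were detected, and of 18 p53 target, CDK inhibitor and quiescence genes 8 to 14 and 14 to 17. Of 16 RB, E2F and DREAM complex genes 6 to 11 and 11 to 14 were detected, and of 14 genes of mitogen signals to microglia 7 to 11 and 10 to 11. None of the 99 was called by limma between KA_H and KA_L (18 at an unadjusted p under 0.05, beside 14.8% of all entries), between APOE_L and KA_L (3, beside 7.84%), between APOE_H and KA_H (8, beside 8.63%) or in the interaction (6, beside 8.32%). Between APOE_H and APOE_L, 20 had an unadjusted p under 0.05 (beside 21.9% of all entries) and 2 were called (2.02%, beside 6.15%). Both called genes rose: E2f4, a repressive E2F factor of resting cells (4.49, SE 1.05, limma adjusted p = 0.0191), and Bax, a p53 target that promotes cell death (5.94, SE 1.58, 0.0352). Of the 21 other settings, the Bax call was lost in 8, with each of the 6 libraries of these groups left out in turn among them (adjusted p up to 0.117), and the E2f4 call in 4, without replicate 1 or 3 of APOE_L or replicate 2 or 3 of APOE_H (up to 0.0766).

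In the average of both conditions 9 of the 99 were called, 9.09%, beside 10.2% of all entries (7.72% higher and 2.46% lower). At an unadjusted p under 0.05 there were 32 of the 99, beside 26.3% of all entries. These shares are descriptions, and their difference was not tested. Of the 7 called genes that rose, 4 came from the 17 tested p53 target, CDK inhibitor and quiescence genes, of which 5 had a difference below 0. These 4 were Cdkn1c, the CDK inhibitor p57 (4.76, limma adjusted p = 0.0149), Bax (4.15, 0.0262), Ccng1 (3.93, 0.0179) and Gadd45a (2.91, 0.0462). The other 3 were E2f4 (3.29, limma adjusted p = 0.0102), Dut, which keeps uracil out of DNA (3.94, 0.0249), and the tubulin gene Tuba1b (2.93, 0.0463). Gadd45a, E2f4 and Tuba1b were named after their values were seen, to complete the 7. Dut was at 0 to 0.25 TPM in the 6 treated L libraries and at 0, 0 and 43.6 TPM in CTRL_L. It therefore passed the filter only with H libraries, in which it was then called higher. For the 99 genes as a set, how many passed only with H libraries was not counted. Ccng1 was at 3.41 to 60.1 TPM in the 6 H libraries and at 0 to 0.76 TPM in the 6 treated L libraries, and E2f4 at 4.79 to 52.5 against 0 to 3.66 TPM. Neither gene overlapped, and 3.42% of all entries likewise lay wholly higher in H. The number of the 99 genes that did so was not counted. The 2 that fell were Lin9, a subunit of the DREAM and MuvB complexes (-2.10, limma adjusted p = 0.0207), at 14.9 to 48.2 TPM in H and 67.0 to 187 TPM in treated L, and Klf4, a factor linked to quiescence (-1.82, 0.0280), at 24.9 to 99.9 against 88.5 to 713 TPM. Lin9 did not overlap, as was so for 2.18% of all entries on the lower side, and Klf4 did. Of the 21 other settings, the calls of Ccng1 and E2f4 were lost in 0, those of Cdkn1c (no filter, adjusted p = 0.0627) and Lin9 (without replicate 3 of APOE_H, 0.0581) in 1, that of Dut in 4 (up to 0.0825), Klf4 in 7 (up to 0.0764), Bax in 9 (up to 0.0861), Gadd45a in 12 (up to 0.109) and Tuba1b in 15 (up to 0.196). Leaving out replicate 1 or 3 of KA_H, or replicate 3 of APOE_H, lost the calls of Dut, Klf4, Bax, Gadd45a and Tuba1b.

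Between KA_L and CTRL_L, Csf1, a growth factor that microglia need, was called (4.04, SE 0.84, limma adjusted p = 0.0427), with 39.5, 42.1 and 20.7 TPM in KA_L and 0.90, 3.51 and 0 in CTRL_L. That call was lost under 12 of the 21 other settings, the fit of those 2 groups alone among them (adjusted p = 0.722), and without any 1 of the KA_H or APOE_H libraries (0.0634 to 0.0788).

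Marker lists of other cell types also differed between these libraries, and not all of them followed H and L. The summed level of 10 choroid plexus markers, led by Ttr and Enpp2, was 33167 to 58842 TPM in the 6 H libraries and 57.6 to 1281 TPM in the 6 treated L libraries, and all 10 passed the filter. CTRL_L replicates 2 and 3 also stood high, at 39175 and 23868 TPM, and detected 10 and 13 of the 39 cell cycle genes, within the range of the L libraries. Summed neutrophil and lymphocyte markers, led by S100a8 and S100a9, of which 6 of 10 passed the filter, ranged from 337 to 1281 TPM in KA_H and from 22.9 to 939 TPM in APOE_H, against 0.02 to 336 TPM over all L libraries. Summed red blood cell and precursor markers, led by Hbb-bs and Hba-a2 and with 4 of 7 passing, were 384 to 4092 TPM in KA_H. They were 80.95 to 156 TPM in KA_L and 43.7 to 749 TPM in APOE_H. They reached 7386 TPM in replicate 2 of APOE_L, which detected 14 of the 39 genes. Microglia markers summed to 45013 to 62870 TPM in the 6 H libraries, above all 6 treated L libraries. Their sums were 20484 to 32106 TPM in KA_L, 35522 to 38321 TPM in APOE_L and 20394 to 65861 TPM in CTRL_L. Summed mural and fibroblast markers, of which 1 of 11 passed the filter, were lower in KA_H (0.56 to 58.8 TPM) than in KA_L (283 to 641 TPM, nearly all Pdgfrb). In APOE_H and APOE_L these sums overlapped. Summed endothelial markers were 131 to 887 TPM in KA_H, 59.1 to 270 in KA_L, 175 to 297 in APOE_H and 6.22 to 124 in APOE_L. Border macrophage and monocyte sums were 265 to 675, 13.7 to 167, 222 to 527 and 72.2 to 426 TPM in that order. Astrocyte sums were lower in KA_H (113 to 120 TPM) than in KA_L (138 to 160 TPM). The part of these cell types in the detection counts and calls above was not tested.

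**Figure D5:**
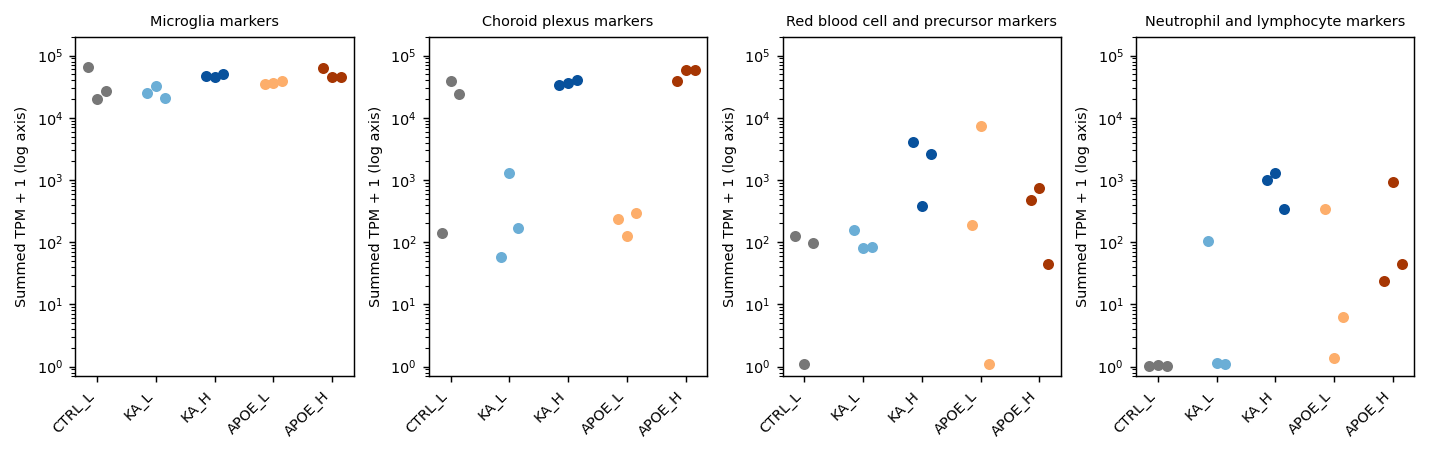
Summed TPM + 1 on a log axis of 4 sets of cell type markers in each library (points), by group. Choroid plexus markers are at 33167 TPM or more in the 6 H libraries, at 39175 and 23868 TPM in 2 CTRL_L libraries, and at most 1281 TPM in KA_L and APOE_L.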

How the data were processed

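The values are TPM per gene in 15 libraries, deposited by the authors as 1 table. The libraries were made from Trizol RNA with a TruSeq kit, per the labels' protocols. The submitters' processing notes name STAR, with no version, and the human build GRCh38, although the gene identifiers are mouse Ensembl ones. The quantifier, the annotation and strand use are not given in the sources used here, and TPM keeps no depth. Gene symbols were matched with the GENCODE M21 annotation (GRCm38), and promoter windows come from RefSeq (GRCm38.p6), with a window for 33 of the 39 genes.

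log2(TPM + 1) was fitted with limma 3.58.1 in R 4.3.3 (means of 5 groups, all 15 libraries, empirical Bayes with trend) over the 17505 entries with 3 or more libraries at 1 TPM or above. The Benjamini-Hochberg adjustment was made separately for 7 comparisons. The procedure was tested on simulated normal values, in which each entry had the same spread in every group. How it performs for genes that are on or off within a group was not tested. Members given in every library were those called and the 3 of each role with the highest mean TPM over the 15 libraries, with others added after the data were seen. The members and lists were chosen with earlier results of these data known. Alternatives were a pseudocount of 0.1, no filter or one of 5 TPM, upper-quartile scaling, only the groups compared, a replicate block and leaving out each library, and, added after the data were seen, detection at 5 TPM.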

Additional observations from a re-analysis of the deposited data

How the results depend on the processing

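The calls of Cdk4 and Birc5 in the average of H against L kept their direction and stayed past the threshold in each of 21 other settings, and no gene named as called changed direction in any. These settings refit the same libraries, and Birc5 had entered the main test only through H libraries. Birc5 in KA_H against KA_L was not called in 7 of the settings (adjusted p from 0.0179 to 0.137 over all 21) and Mcm5 in APOE_H against APOE_L in 6 (0.0152 to 0.0738). The cause of the changes below was not tested. Counts of called cell cycle genes became 0 in KA_H against KA_L with no filter and with only the groups compared, and 2 with upper-quartile scaling. They became 0 in APOE_H against APOE_L with no filter, and 4 in the average with only the groups compared. With 1 library left out they ranged from 0 to 2, 0 to 2 and 2 to 6 in these comparisons, and stayed at 0 in the others.

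Over all entries, no filter gave 50 calls for KA_L against CTRL_L, 100 for KA_H against KA_L, 538 for APOE_H against APOE_L, 1048 for the average, 13 for APOE_L against KA_L, 4 for APOE_H against KA_H and 3 for the interaction. The main counts in that order were 100, 260, 1076, 1782, 8, 93 and 8. Only the groups compared gave 0 calls for KA_L against CTRL_L, 3 for KA_H against KA_L, 1 for APOE_L against KA_L, 0 for APOE_H against KA_H and 18 for the interaction. Upper-quartile scaling gave 62 for KA_L against CTRL_L, 394 for KA_H against KA_L and 24 for the interaction, and the 5 TPM filter gave 43 for APOE_H against KA_H and 13 for the interaction. Leaving out 1 library gave 37 to 229, 10 to 376, 308 to 1296, 1171 to 1940, 3 to 69, 2 to 94 and 0 to 22 in the same order. Where this left a group with 2 libraries, the spread was pooled over groups. Upper-quartile scaling moved the median of all entries from 0.11 to 0.32 in KA_H against KA_L, from 0.25 to 0.01 in APOE_H against KA_H and from 0.38 to 0.05 in the interaction.

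Groups share replicate numbers in the labels, but the numbers did not pair the libraries: 0 of 30 same-number pairs had deviations correlated over 0.1 (median 0.0047, against -0.00076 over 60 pairs of different numbers). The replicate block gave 79, 181, 985, 1646, 4, 61 and 1 calls over all entries, and 3 cell cycle genes in the average, with Rrm1 beside Cdk4 and Birc5. Detection at 5 TPM, chosen after seeing the data, moved the mean number of members from 11.7 to 8.33 in KA_L, from 23.7 to 17.0 in KA_H and from 12 to 8 in APOE_L. Depth is unknown, so a gene listed at 0 has no upper limit that could be given.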
